A study of Mus musculus with 10 samples.

Results

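The autosomal genes AA467197, Gpat3, Tmem87a, Kbtbd11 and Adam23 showed large expression differences between haploid mouse embryonic stem cells (AG-haESC) and the diploid line E14. They were selected on their measured difference between AG-haESC and E14, which is therefore given below as a description, with no test. The genes are read by 10 of the 45101 probe sets of the array, and each is among the 13242 genes tested. AG-haESC are embryonic stem cells with a single, paternally derived chromosome set, from androgenetic blastocysts. Each of 5 arrays holds another line of labelled genotype C57BL/6J, 4 with an Oct4-EGFP transgene (replicates 1, 2, 4 and 5) and 1 with an Actin-EGFP transgene (replicate 3), at passages 12 to 15. E14 is a diploid male embryonic stem cell line of genotype 129/Sv, wild type, at passage 17, on 3 arrays of the same line. MEF are wild-type fibroblasts of male B6D2F1 embryos at day 13.5 of gestation and passage 2, on 2 arrays, and the labels do not tell whether these hold separate embryos. The cells of all groups were stained with Hoechst 33342 and sorted by DNA content, AG-haESC at 1n and the other groups at 2n. AG-haESC were grown on feeder cells with CHIR99021 and PD0325901, while the labels do not name the medium of E14 and MEF. Ploidy, parental origin of the genome, strain, transgene, passage and sort gate differ together between AG-haESC and E14, and feeder cells and medium may differ too. The parts of these factors in any difference cannot be told apart.

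The genes act in unrelated places in the cell. Gpat3 encodes an acyltransferase of the endoplasmic reticulum that takes the first step from glycerol-3-phosphate to phospholipids and triglycerides, and is best known from fat cells. AA467197, also called Nmes1, encodes a small mitochondrial protein related to the cytochrome c oxidase subunit NDUFA4, and its transcript is the host of the microRNA miR-147, which is known from activated macrophages. Tmem87a encodes a membrane protein of the Golgi apparatus, and Kbtbd11 a BTB-kelch protein of the kind that brings substrates to the CUL3 ubiquitin ligase. Adam23 encodes a cell surface protein of the ADAM family that lacks an active protease site, binds LGI proteins and integrins, and is known from neurons.

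RefSeq promoter windows, which run from upstream of the start of a gene to just past it, were found for 4 of the 5 genes. Those of the 3 genes whose AG-haESC arrays all lay above their array medians are shown, because these are the genes with measurable signal in every haploid line. The letters are those of GRCm38.p6, an assembly of C57BL/6J, which is the labelled strain of AG-haESC and not that of E14, and the sequence of 129/Sv was not analysed here. Capitals mark matches, on either strand, to 4 motifs: TGACTCA (AP-1), GGGCGG (GC box), TATAA and CACGTG (E-box).
AA467197, chr2:122637637-122637936, plus strand: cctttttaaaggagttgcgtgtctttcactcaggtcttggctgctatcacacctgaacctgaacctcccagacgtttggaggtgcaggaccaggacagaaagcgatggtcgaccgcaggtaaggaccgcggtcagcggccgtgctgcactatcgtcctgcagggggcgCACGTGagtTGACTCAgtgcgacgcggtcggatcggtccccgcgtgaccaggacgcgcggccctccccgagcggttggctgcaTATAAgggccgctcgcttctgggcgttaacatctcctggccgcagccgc
Gpat3, chr5:100845979-100846278, plus strand: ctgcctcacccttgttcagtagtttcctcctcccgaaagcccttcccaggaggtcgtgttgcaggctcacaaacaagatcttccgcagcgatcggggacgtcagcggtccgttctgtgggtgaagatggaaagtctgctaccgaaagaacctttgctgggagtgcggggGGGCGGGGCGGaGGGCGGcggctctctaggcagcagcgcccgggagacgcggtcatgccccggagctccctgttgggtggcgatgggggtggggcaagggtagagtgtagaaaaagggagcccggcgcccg
Tmem87a, chr2:120404067-120404366, minus strand: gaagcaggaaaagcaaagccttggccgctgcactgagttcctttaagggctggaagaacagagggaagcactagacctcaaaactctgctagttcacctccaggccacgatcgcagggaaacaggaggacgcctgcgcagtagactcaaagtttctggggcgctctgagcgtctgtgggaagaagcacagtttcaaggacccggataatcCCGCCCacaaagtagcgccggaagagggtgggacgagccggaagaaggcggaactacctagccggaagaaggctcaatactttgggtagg
The AA467197 window holds 1 E-box, 1 AP-1 match and 1 TATAA, none of which overlaps another, and no GC box. The Gpat3 window holds 3 GC boxes, of which a pair shares a base, and the Tmem87a window holds 1, on the opposite strand. Over 32851 windows of the same length, 5.20% held TGACTCA, 35.7% GGGCGG, 24.9% TATAA and 7.15% CACGTG. The windows of AA467197, Gpat3 and Tmem87a hold 29, 23 and 15 CpG dinucleotides, against a median of 7 over all windows. Mature miR-147-5p lies within the AA467197 gene at chr2:122640814-122640837 on the plus strand, and was not measured by these arrays. It is shown with its seed in capitals because it is encoded in the gene that is bright in every haploid line. Only this strand of the microRNA is given, and whether it is the strand known from macrophages was not looked up here.
miR-147-5p: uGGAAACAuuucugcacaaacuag

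The pluripotency factors Pou5f1, Sox2 and Nanog, which define embryonic stem cells, averaged at least 13.25 on the log2 signal scale in both stem cell groups, and all 10 pluripotency markers lay above the array median on each of these arrays. Of these 10, Zfp42 was called lower in AG-haESC, at -1.56 ± 0.40 (SE, limma adjusted p = 0.0219), and none was called higher. Nanog was higher in AG-haESC by 0.87 ± 0.12 (SE, limma adjusted p = 0.00075), below the 2-fold that a call needs. Array medians lay between 56.2 and 68.2 on the linear scale, and a signal below the array's own median is called low here. Over all genes, E14 replicate 3 stood apart from the other E14 arrays, with Pearson's r of 0.924 and 0.922 to them against 0.968 between E14 replicates 1 and 2, so values are also given without it. The SD of a gene, at the median, was 0.29 over the haploid lines and 0.33 over E14, or 0.12 over E14 replicates 1 and 2. Since E14 is a single line, errors and p-values that involve it hold no spread between diploid lines.

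In each of the 5 genes, the arrays of AG-haESC and E14 did not overlap, as was the case for 22.7% of all genes tested. Gpat3 and AA467197 were the brighter in AG-haESC, and Tmem87a, Kbtbd11 and Adam23 were the dimmer. By size of the difference Gpat3 stood at place 5 and AA467197 at place 8 of 12721 autosomal genes. Among genes lower in AG-haESC, Kbtbd11 was at place 3, Tmem87a at place 6 and Adam23 at place 7. These places rest partly on low signals: with these set to the array median, AA467197 (4.78) passed Gpat3 (4.07), and Tmem87a (-3.60) passed Kbtbd11 (-3.18) in size. The dot plot by array shows MEF within the range of E14 in AA467197 and Adam23 and between the stem cell groups in Gpat3, Tmem87a and Kbtbd11.

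**Figure D1:**
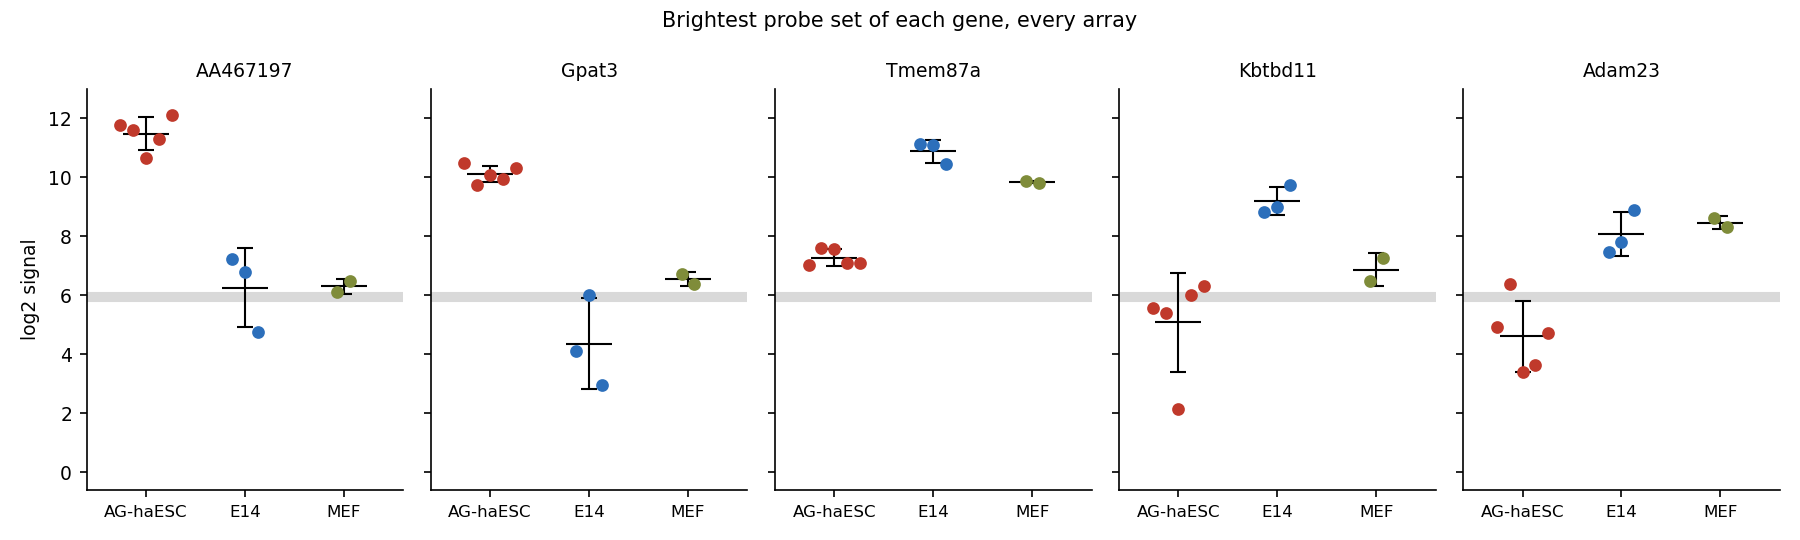
Log2 signal of the brightest probe set of each gene (vertical axis) in AG-haESC (5 arrays), E14 (3 arrays) and MEF (2 arrays). Points are arrays, black lines the mean with SD, and the grey band the range of array medians; AG-haESC and E14 points do not overlap in any panel.

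Gpat3, the acyltransferase, read 10.48, 9.76, 10.09, 9.95 and 10.31 in AG-haESC replicates 1 to 5 (log2 signal, probe set 1454799_at), against 4.12, 6.01 and 2.98 in E14 replicates 1 to 3. All haploid lines lay within a unit of each other, and all E14 arrays were low. The mean was 10.12 ± 0.29 in AG-haESC and 4.37 ± 1.53 in E14 (SD, n = 5 and n = 3). Because E14 lay below its array medians throughout, the difference is given as at least 16.9-fold higher in AG-haESC, with E14 put at the array medians. The measured log2 difference was 5.75 ± 0.51 (SE), or 5.05 ± 0.41 without E14 replicate 3, and 4.07 with low signals set to the array median. MEF read 6.73 and 6.39, between the stem cell groups and just above their medians.

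AA467197, the gene of the mitochondrial protein, read 11.78, 11.59, 10.65, 11.31 and 12.10 in AG-haESC replicates 1 to 5 (probe set 1434046_at). E14 replicates 1 to 3 read 7.24, 6.81 and 4.75. The lowest haploid value was that of the Actin-EGFP line, and it still stood 3.42 above the highest E14 array. Means were 11.49 ± 0.55 in AG-haESC and 6.27 ± 1.33 in E14 (SD, n = 5 and n = 3). The difference was 5.22 ± 0.49 (SE), a fold of 37.3, and 4.47 ± 0.32 without E14 replicate 3, the only E14 array in which the gene was low. MEF read 6.13 and 6.49, below E14 replicates 1 and 2 and above E14 replicate 3.

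Tmem87a, the Golgi gene, gave the most even values. It read 7.04, 7.61, 7.56, 7.11 and 7.11 in AG-haESC replicates 1 to 5 (probe set 1424454_at), against 11.13, 11.10 and 10.44 in E14 replicates 1 to 3. No array was low, so both groups carried measurable signal. Means were 7.29 ± 0.28 in AG-haESC and 10.89 ± 0.39 in E14, differing by -3.60 ± 0.21 (SE), 12.2-fold lower in AG-haESC. It was -3.83 ± 0.20 without E14 replicate 3. MEF read 9.88 and 9.81, between the stem cell groups, at a distance from AG-haESC of -2.56 ± 0.24 (AG-haESC minus MEF).

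Kbtbd11, the BTB-kelch gene, read 5.59, 5.40, 2.16, 6.01 and 6.32 in AG-haESC replicates 1 to 5 on its brightest probe set (1435465_at), against 8.85, 9.02 and 9.73 in E14 replicates 1 to 3. The haploid lines were spread widely: 3 of them were low, replicate 3, the Actin-EGFP line, lay far below the others, and 2 were just above their medians. Means were 5.10 ± 1.68 in AG-haESC and 9.20 ± 0.47 in E14, differing by -4.10 ± 0.78 (SE), which was -3.83 ± 0.90 without E14 replicate 3 and -3.37 ± 0.34 without AG-haESC replicate 3. With low signals set to the array median it was -3.18. MEF read 6.48 and 7.28, between the highest haploid line and the lowest E14 array.

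Adam23, the LGI-binding surface protein, read 4.92, 6.38, 3.39, 3.63 and 4.73 in AG-haESC replicates 1 to 5 on its brightest probe set (1447946_at), against 7.48, 7.83 and 8.91 in E14 replicates 1 to 3. Only AG-haESC replicate 2 lay above its array median, while every E14 array did. Means were 4.61 ± 1.19 in AG-haESC and 8.07 ± 0.75 in E14, and the gap between the nearest arrays was 1.10, the narrowest of the 5 genes. The difference was -3.46 ± 0.61 (SE), -3.04 ± 0.67 without E14 replicate 3, and -2.05 with low signals set to the array median. MEF read 8.62 and 8.31, above E14 replicates 1 and 2 and below E14 replicate 3.

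Kbtbd11 is covered by 4 probe sets and Adam23 by 3, while AA467197, Gpat3 and Tmem87a rest on 1 each. Of the 10 probe sets, 6 passed the filter on low signals. A second Adam23 probe set, 1423378_at, read 6.42, 3.98, 3.28, 3.68 and 5.56 in AG-haESC replicates 1 to 5, against 7.49, 6.51 and 8.70 in E14 replicates 1 to 3, a difference of -2.98 ± 0.71 (SE). Both Adam23 probe sets thus had the same order of groups, but the brightest haploid line was replicate 1 on this one and replicate 2 on the other. The groups nearly met on 1423378_at, at 6.42 in AG-haESC replicate 1 and 6.51 in E14 replicate 2. The remaining Adam23 probe set, 1459642_at, lay below the median of every array, at 4.16 ± 0.90 in AG-haESC and 4.50 ± 0.11 in E14. So did the other Kbtbd11 probe sets, 1430073_at, 1431254_at and 1446549_at, whose group means lay 0.56, -0.94 and 0.14 apart (AG-haESC minus E14) at background level. Which stretch of the transcript each probe set reads was not looked up here.

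**Figure D2:**
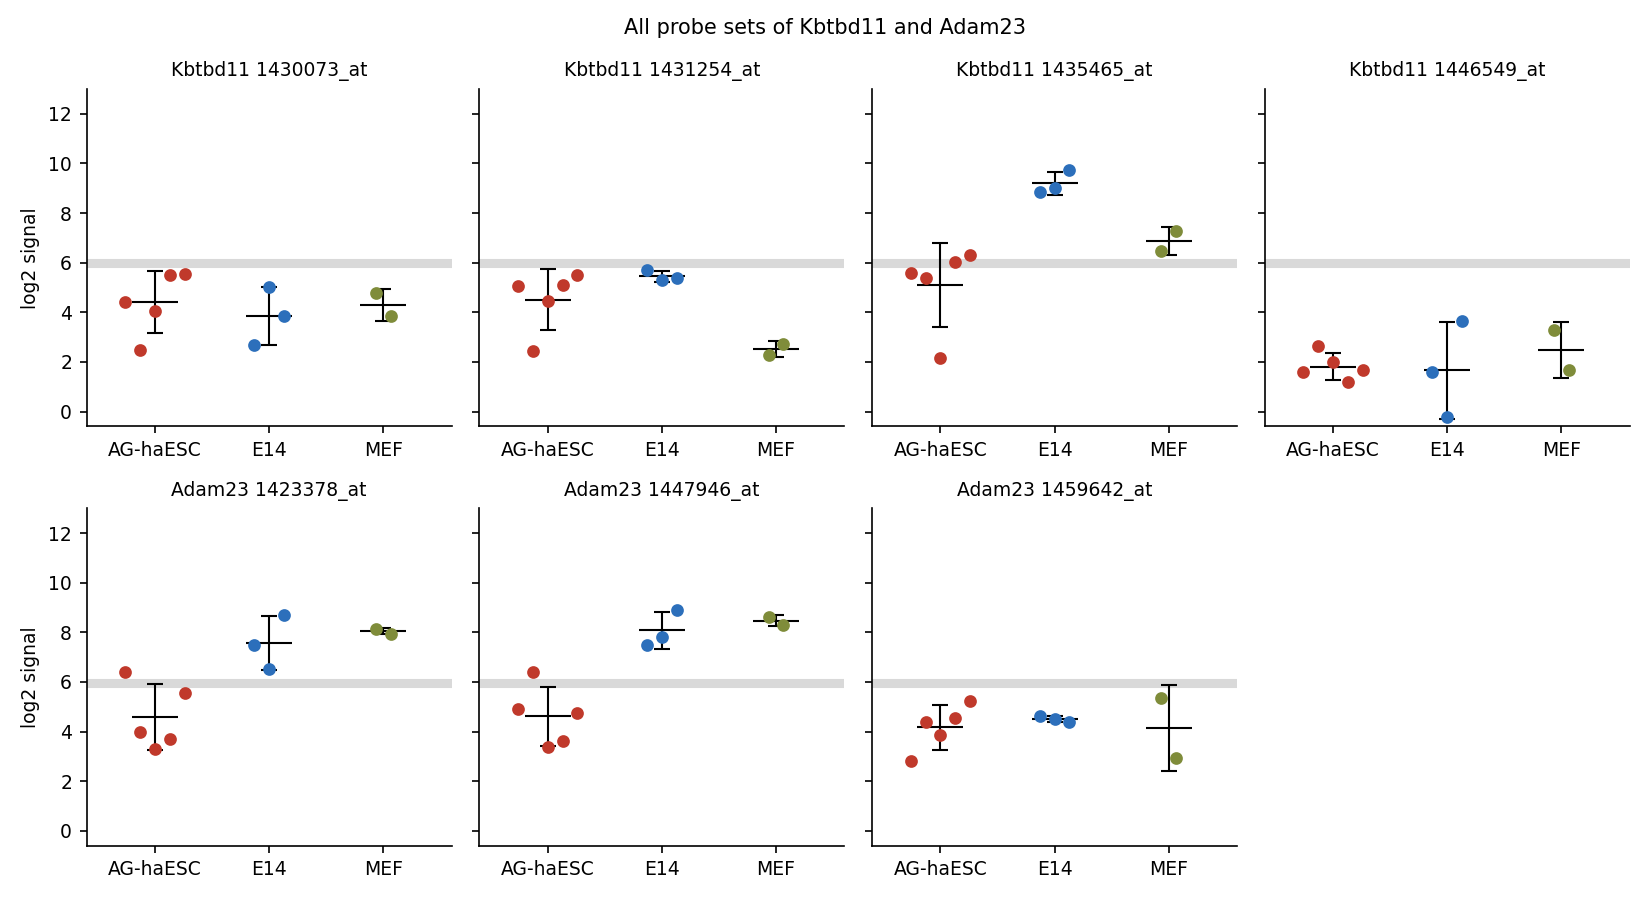
Log2 signal (vertical axis) of all 4 Kbtbd11 and all 3 Adam23 probe sets in AG-haESC, E14 and MEF, with points for arrays, lines for mean and SD, and a grey band for the array medians. For Kbtbd11 only 1435465_at rises above the band, and for Adam23 both 1423378_at and 1447946_at separate AG-haESC from E14, the former only narrowly.

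The haploid lines agreed to differing degrees. The SD among AG-haESC was larger for Kbtbd11 than for 99.0% of genes tested, for Adam23 than for 95.7% and for AA467197 than for 80.6%. It was near the middle of all genes for Gpat3, at 48.4%, and for Tmem87a, at 46.6%. Kbtbd11 and Adam23 are also the genes whose haploid values were mostly low.

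**Figure D3:**
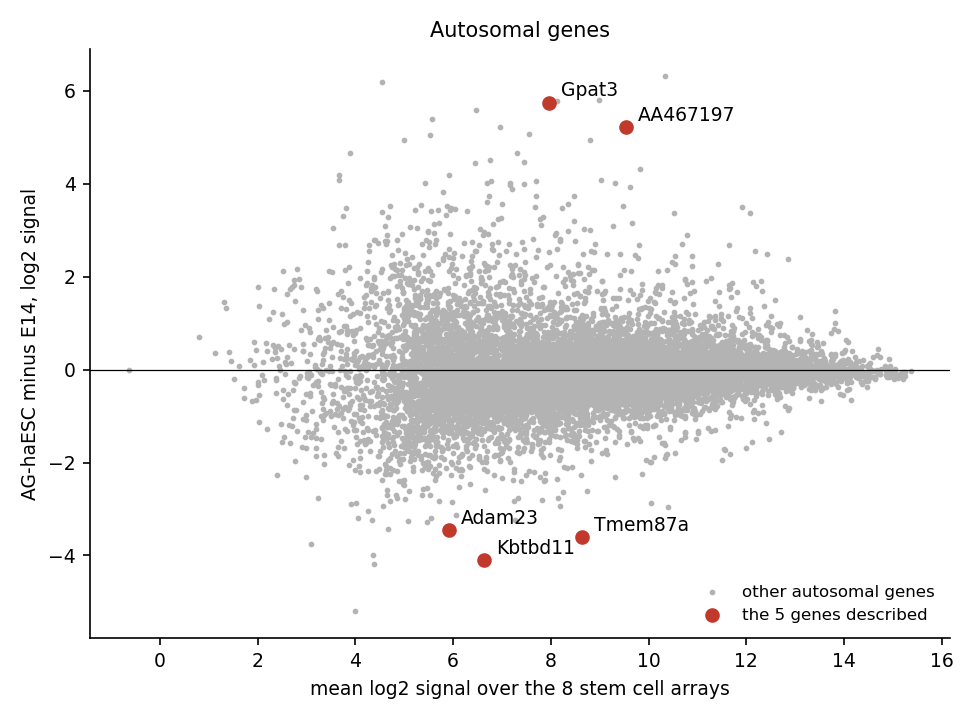
Difference in log2 signal, AG-haESC minus E14 (vertical axis), against the mean log2 signal over the 8 stem cell arrays (horizontal axis) for 12721 autosomal genes. Gpat3 and AA467197 lie at 5.75 and 5.22 near the upper edge, and Adam23, Tmem87a and Kbtbd11 at -3.46, -3.60 and -4.10 near the lower edge.

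Against MEF, the genes were tested on a contrast that includes the stem cell arrays on which they were chosen. This is the mean of the 8 stem cell arrays minus the mean of the MEF arrays. With equal spread in all groups, its sampling error is uncorrelated with that of the difference between AG-haESC and E14. A large difference between these groups can still carry over into it, so its calls are not independent of the choice. On it 42.3% of all genes were called (limma, adjusted p under 0.05 and at least 2-fold). Of the 5 genes 4 were called. The mean of the stem cell arrays was above MEF in Gpat3 and AA467197, and below it in Tmem87a and Adam23. Of all genes, 22.3% were called lower in the stem cell arrays. The stem cell mean averages AG-haESC with E14, and the E14 mean was not above MEF in Gpat3 or AA467197, nor below it in Tmem87a. In AA467197 this rested on E14 replicate 3, since E14 replicates 1 and 2 lay above both MEF arrays. AA467197 averaged 9.53 in the stem cell arrays and 6.31 in MEF, a difference of 3.22 ± 0.53 (SE, limma adjusted p = 0.000276). Tmem87a averaged 8.64 in the stem cell arrays and 9.85 in MEF, a difference of -1.21 ± 0.23 (limma adjusted p = 0.000776). Adam23 averaged 5.91 in the stem cell arrays and 8.47 in MEF, a difference of -2.56 ± 0.66 (limma adjusted p = 0.00538). Its probe set 1423378_at gave -2.34 ± 0.77 (limma adjusted p = 0.0213 over probe sets).

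Gpat3 was called narrowly, at 1.41 ± 0.56 (limma adjusted p = 0.0449), and Kbtbd11 was not, at -0.24 ± 0.84 (limma adjusted p = 0.817). In Gpat3, Tmem87a and Kbtbd11 the MEF arrays lie between the stem cell groups, so the stem cell mean describes neither group. The Gpat3 call was lost without any 1 AG-haESC array or either MEF array (adjusted p between 0.116 and 0.221), and the Adam23 call without MEF replicate 1 (0.0571). Tmem87a came out just under 2-fold, at -0.98 or -0.99, without AG-haESC replicate 1, 4 or 5. The stem cell mean is taken over the arrays left, so leaving out a haploid array also gives E14 more weight in it. Changes on leaving out a haploid array are thus partly changes of the contrast. Set out by group, E14 minus MEF was -2.19 ± 0.64 in Gpat3, -0.04 ± 0.61 in AA467197, 1.04 ± 0.27 in Tmem87a, 2.32 ± 0.97 in Kbtbd11 and -0.40 ± 0.76 in Adam23. AG-haESC minus MEF was 3.56 ± 0.59 in Gpat3, 5.18 ± 0.56 in AA467197, -1.78 ± 0.89 in Kbtbd11 and -3.86 ± 0.70 in Adam23. These differences are correlated with the contrast that chose the genes and carry no test. The order of levels was AG-haESC, MEF, E14 for Gpat3 and the reverse for Tmem87a and Kbtbd11, with the highest haploid Kbtbd11 value close to the lower MEF value. In AA467197 and Adam23 the E14 arrays lay on both sides of MEF, with replicates 1 and 2 on one side and replicate 3 on the other.

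The genes that neighbour these 5 on their chromosomes gave a single call between AG-haESC and E14. The 3 nearest tested genes on each side gave 30 genes in all, of which 1 was called higher in AG-haESC and none lower by limma, against 8.33% of all genes called (4.59% higher and 3.74% lower). At the adjusted p alone 6 of the 30 passed, against 15.9% of all genes. The called gene, Spata5l1, encodes an AAA-type ATPase and is the tested gene next to AA467197, on the same strand and with a gene model that does not overlap it. Spata5l1 read 8.23, 8.05, 7.79, 8.61 and 8.32 in AG-haESC replicates 1 to 5, against 5.68, 4.21 and 4.93 in E14 replicates 1 to 3. Every haploid array stood above every E14 array, and all E14 arrays were low, so Spata5l1 was at least 4.46-fold higher in AG-haESC. Its measured difference was 3.26 ± 0.34 (SE, limma adjusted p = 0.000125), and MEF read 5.23 and 5.48, near E14. Spata5l1 was called under all 17 alternative settings.

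On the other side of AA467197, Slc30a4, a zinc transporter, differed by 0.83 ± 0.24 (limma adjusted p = 0.0397), below 2-fold. The neighbours of Gpat3 ranged from -0.65 to 0.45 and none was called, among them Cds1, another enzyme of phospholipid synthesis, at -0.65 ± 0.29 (limma adjusted p = 0.155). Around Tmem87a, Zfp106, the third gene on one side, differed by -0.97 ± 0.12 (limma adjusted p = 0.000433), just under 2-fold, and the nearest genes Vps39 and Ganc by -0.33 ± 0.34 and -0.01 ± 0.34. Next to Kbtbd11, Arhgef10 differed by -1.65 ± 0.55 (limma adjusted p = 0.0631) and Myom2, a muscle protein gene, by -0.99 ± 0.28 (0.0355), while Tdrp on the same side as Arhgef10 differed by 0.98 ± 0.28 (0.0343). The neighbours of Adam23 lay between -0.44 and -0.21, none called. They include Zdbf2, known as a paternally expressed imprinted gene, at -0.31 ± 0.22 (limma adjusted p = 0.379). AA467197 and Tmem87a both lie on chromosome 2, with 37 tested genes between them.

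**Figure D4:**
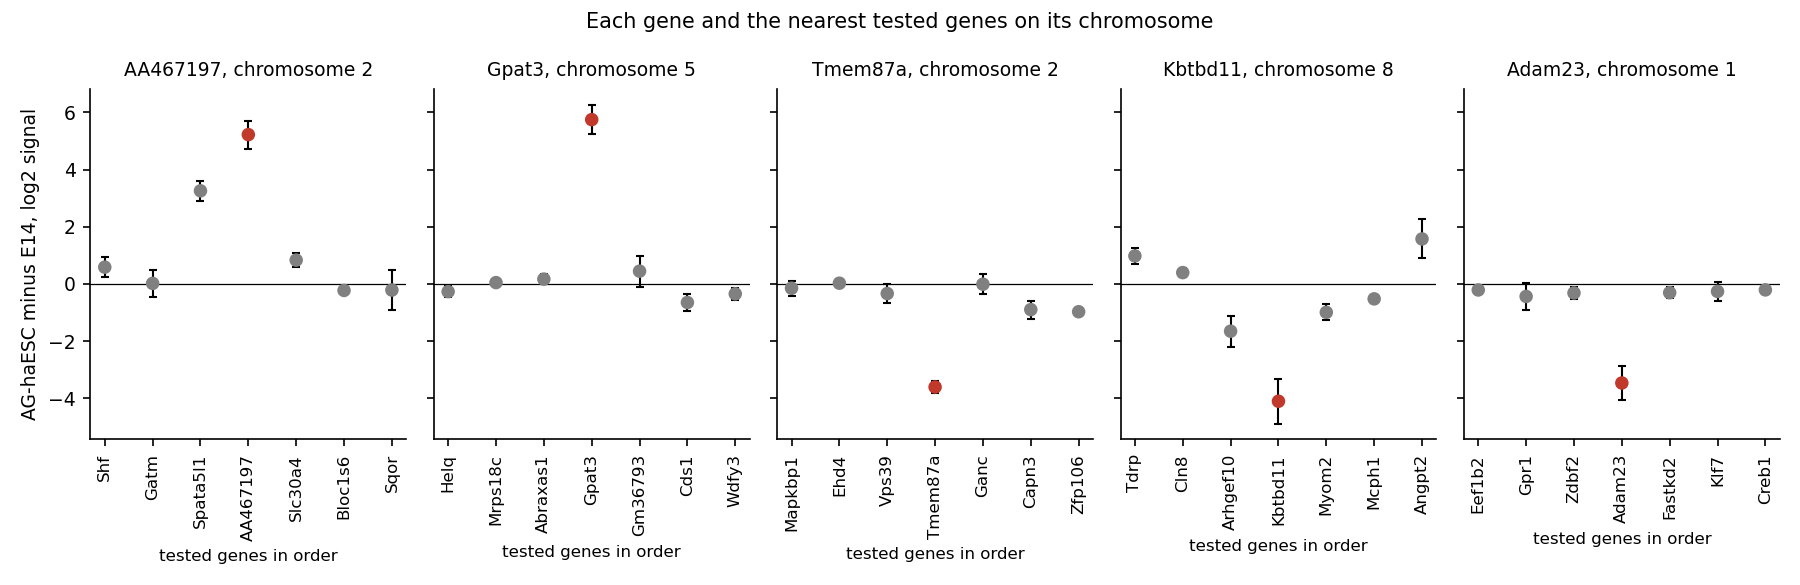
Difference in log2 signal, AG-haESC minus E14 (vertical axis, with SE bars), of each of the 5 genes (red) and of the 3 nearest tested genes on either side (grey), in chromosome order and not to scale in distance. Of the 30 neighbours only Spata5l1, at 3.26 beside AA467197, was called.

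The other genes of the same families and pathways gave few calls. Of 75 genes in 5 lists 67 were tested, and 3 were called higher and 1 lower in AG-haESC by limma, beside the 4.59% and 3.74% of all genes. Their median difference was 0.01 against -0.08 over all genes tested. Of 18 genes of glycerolipid synthesis 1 was higher and none lower. This was Plin2, which coats lipid droplets, at 11.44 ± 0.35 in AG-haESC and 10.03 ± 1.28 in E14 arrays, which differ by 1.41 ± 0.43 (SE, limma adjusted p = 0.0463). E14 replicate 3 stood at 8.55 and E14 replicates 1 and 2 at 10.75 and 10.79. The call was lost on leaving out E14 replicate 3, any haploid array or either MEF array. The other acyltransferases of the first step, Gpam, Gpat2 and Gpat4, differed by -0.11 ± 0.19, 0.29 ± 0.58 and -0.01 ± 0.20 (limma adjusted p = 0.736, 0.782 and 0.986).

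Of 15 genes of cytochrome c oxidase and the NDUFA4 family, 1 was lower and none higher. Ndufa4, the subunit related to AA467197, was at 13.74 ± 0.12 in AG-haESC and 13.82 ± 0.22 in E14, differing by -0.08 ± 0.11 (SE, limma adjusted p = 0.662). Its paralogue Ndufa4l2, known as a target of hypoxia signalling, was at 4.23 ± 1.03 in AG-haESC and 7.50 ± 1.48 in E14, differing by -3.27 ± 0.90 (SE, limma adjusted p = 0.0309). Its arrays overlapped, with 6.00 in AG-haESC replicate 1 and 5.81 in E14 replicate 3. The call did not survive leaving out any 1 of the haploid replicates 2 to 5, or E14 replicate 1 or 2. AA467197 was thus the brighter in AG-haESC and Ndufa4l2 the dimmer on average, with overlapping arrays for Ndufa4l2.

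Of 6 tested proteins built like Tmem87a, with an extracellular GOLD domain and several membrane spans, 1 was higher and none lower. Wls, which carries WNT proteins to the cell surface, was at 9.15 ± 0.19 in AG-haESC and 7.32 ± 0.85 in E14, differing by 1.83 ± 0.30 (SE, limma adjusted p = 0.00222). Wls was called under all 17 alternative settings. Tmem87b, the closest relative of Tmem87a, differed by -0.59 ± 0.27 (limma adjusted p = 0.173). Of 15 BTB-kelch and CUL3 ligase genes 1 was higher and none lower, the X-linked Klhl13, by 1.36 ± 0.37 (limma adjusted p = 0.0296). AG-haESC ran from 12.61 to 13.55, and E14 replicate 3, at 12.96, fell among them, while E14 replicates 1 and 2 stood at 11.14 and 11.08. Klhl13 lost its call when haploid replicate 1, 3 or 4, or E14 replicate 1 or 2, was left out. Kbtbd8 differed by -0.52 ± 0.21 (limma adjusted p = 0.116). Of 13 ADAM genes and ADAM23 ligands none was called, and 1 passed the adjusted p alone. The noncatalytic relatives Adam11 and Adam22 differed by 0.01 ± 0.34 and -0.42 ± 0.35 (limma adjusted p = 0.992 and 0.453).

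**Figure D5:**
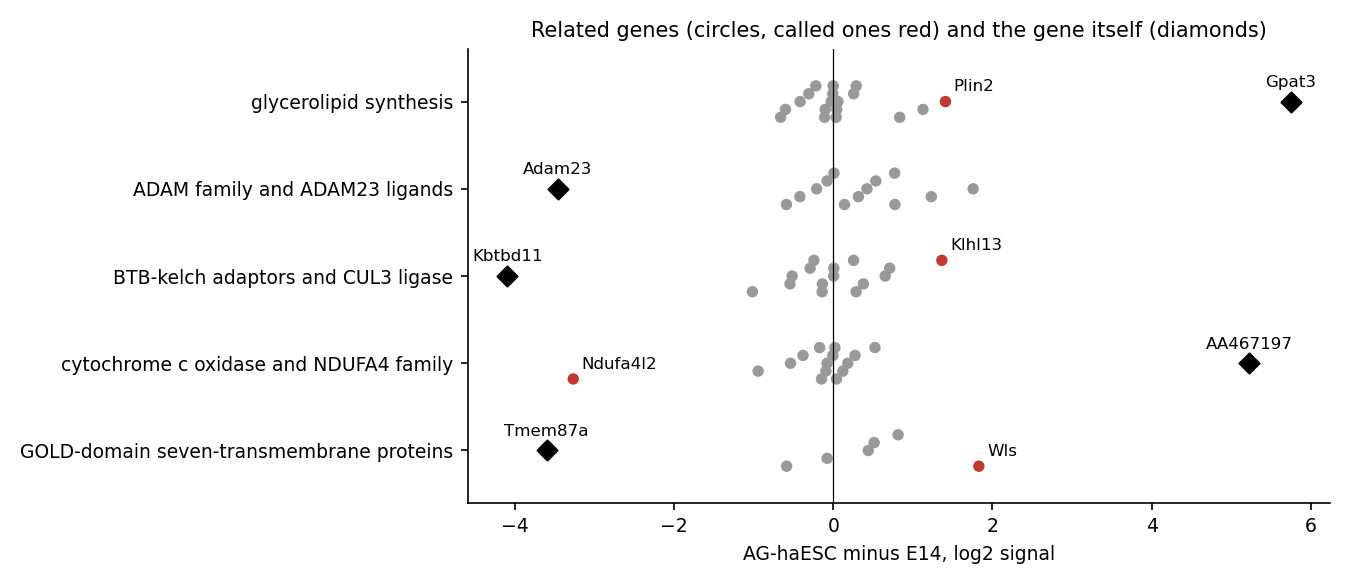
Difference in log2 signal, AG-haESC minus E14 (horizontal axis), of 67 related genes in 5 lists (circles) and of the gene each list belongs to (black diamonds). The called genes Plin2, Klhl13, Wls and Ndufa4l2 are red, at 1.41, 1.36, 1.83 and -3.27.

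Among the genes whose signal over the 10 arrays was most like that of AA467197 were Etfb, of mitochondrial electron transfer, and Gss, of glutathione synthesis (Pearson's r = 0.983 and 0.977). For Gpat3 they were Lars2, a mitochondrial leucyl-tRNA synthetase, and Vma21 (0.988 and 0.981). Bdh2 and Shfl were most like Tmem87a (0.988 and 0.969), Mospd3 and Cep131 most like Kbtbd11 (0.972 and 0.966), and Gtf2i most like Adam23 (0.967). The 10 arrays fall into 3 groups, so these coefficients mainly compare group levels, and they are a description. Over the 3 genes most like each of the 5, the differences between AG-haESC and E14 ran from -2.27 in Bdh2 to 2.48 in Rtn4rl1.

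Strain is a possible source of these differences that the design leaves joined to the others. AG-haESC carry a C57BL/6J genome, E14 a 129/Sv genome and MEF a B6D2F1 genome, which has a C57BL/6 and a DBA/2 parent. In MEF, which thus hold a C57BL/6 copy beside another, Tmem87a stood at 9.85 ± 0.05, nearer to E14 at 10.89 than to AG-haESC at 7.29. AA467197 and Spata5l1 were near E14 in MEF and bright in AG-haESC alone. MEF are also another cell type, so their values do not separate strain from the other factors. The labelled strain was looked at with Nnt, which encodes a mitochondrial protein and in which C57BL/6J is known to carry a deletion. On its brightest probe set, Nnt was at 9.48 ± 0.42 in AG-haESC and 10.08 ± 0.10 in E14, differing by -0.60 ± 0.21 (SE), which did not pass (limma adjusted p = 0.0827), and MEF were at 11.41 ± 0.13. On that probe set all AG-haESC arrays were below E14, but on the other kept one AG-haESC replicate 5, at 9.78, was above E14 replicate 3, at 9.72. Where the Nnt probes lie relative to that deletion was not looked up here, so this does not check the label. Probe sequences and strain variants were not used here, and whether a base that differs between strains lies under a probe of any of the 5 genes was not tested.

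AG-haESC were grown on feeder cells, and some fibroblast markers stood higher there. Of 27 tested fibroblast markers 11 were called higher and 1, Mmp2, lower in AG-haESC than in E14 by limma, against the 4.59% and 3.74% of all genes given above. The other 15 were not called, among them Vim at -0.01 ± 0.14, Fn1 at -0.12 ± 0.17 and Pdgfra at 0.03 ± 0.30 (AG-haESC minus E14, SE). Their summed linear signal was 32438 to 45056 in AG-haESC, 23066 to 24102 in E14 and 337379 to 384262 in MEF. Of the fibrillar collagens that define fibroblasts, Col1a2 and Col3a1 were higher in AG-haESC by 2.69 and 2.14, and Col1a1, low in every E14 array, was at least 3.88-fold higher. Gpat3 and AA467197 were dimmer in MEF than in every AG-haESC line, and Tmem87a, Kbtbd11 and Adam23 were brighter in MEF than in every AG-haESC line. Of 9 macrophage markers 1 was called higher in AG-haESC, Cd14, which was at least 1.72-fold higher, and their summed signal was 1036 to 2556 in AG-haESC and 1103 to 1423 in E14. The defining markers Adgre1, Csf1r and Ptprc averaged 5.57, 6.68 and 2.79 in AG-haESC and 5.42, 6.86 and 3.67 in E14, and were not called. In bulk arrays, fewer cells with a transcript and less of it per cell cannot be told apart. AG-haESC were sorted at 1n DNA content, and how pure that sort was is not shown by these values. The part of feeder cells in the differences of the 5 genes was not tested.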

How the data were processed

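RNA of sorted cells was measured on Affymetrix mouse arrays, 1 array per sample, in 3 groups taken from the sample titles. The authors deposited a linear signal intensity for each probe set, computed with MAS5 per the submitters' processing notes. The 2% trimmed mean of every array is 500, so values are relative within an array and total RNA per cell cannot be seen. Depth is not defined for arrays, and their number limits the precision. No detection calls were used.

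Tests used log2 signal. Of 45101 probe sets 34945 pair with 1 gene symbol, updated by gene ID, and those above the array median in at least 2 arrays were kept. The brightest kept probe set of a gene was used (13242 genes). Genes were fitted with limma 3.58.1 in R 4.3.3, all 10 arrays in 1 fit of 3 group means with 7 residual degrees of freedom and a trended prior variance, with Benjamini-Hochberg adjustment over all genes. A gene is called at adjusted p under 0.05 and at least 2-fold. The fit was tested on simulated data. Where all arrays of the dimmer group lay below the array medians, a fold is given as "at least". The genes named are the 5, their called and closest relatives, 3 tested neighbours on each side, the genes most alike in pattern, Nnt and marker genes. Cd14, Zfp42, Mmp2, Vim, Fn1 and Pdgfra were named after their values were seen. The 5 genes and all lists were chosen with earlier results of these data known. E14 and MEF share replicate numbers, but correlations of 0.00146 and -0.033 between same-numbered deviations, over genes, gave no sign of pairing. Alternatives are given in the closing section. Gene order, promoters and microRNA sequences came from RefSeq (GRCm38.p6). P-values set a mean difference against the spread between arrays within groups, pooled over the 3 groups and moderated by the prior.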

Additional observations from a re-analysis of the deposited data

Results flagged for a closer look

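Kbtbd11 read 2.16 on probe set 1435465_at in AG-haESC replicate 3, the Actin-EGFP line, against 5.40 in the nearest of the other AG-haESC lines. Its distance from the others relative to the whole range passed Dixon's 95% limit. Of 10 such sets of AG-haESC values, 1 per probe set of the 5 genes, this was the 1 set apart. Chance gives about 1 in 20 for each set, so 1 among 10 is not unusual. The value also lay far below its array median, at 2.16 against 5.89 in log2 signal.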

How the results depend on the processing

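The differences of the 5 genes and the counts of calls were recomputed under 17 alternatives, and E14 minus MEF under 1, while Nnt, marker counts, likeness and bounds were not recomputed. The differences between AG-haESC and E14 kept their direction under all 17. With a pseudocount of 32 or with low signals set to the array median, they came to 4.31 and 4.07 in Gpat3 and to -2.33 and -2.05 in Adam23. For the stem cell arrays minus MEF, Kbtbd11 changed sign under these settings, to 0.13 and 0.33, and ranged from -0.69 to 0.40 with 1 array left out, with a positive value without AG-haESC replicate 3 (0.40) or MEF replicate 2 (0.15). Gpat3 stayed at 1.41 but lost its call with no filter (limma adjusted p = 0.0555) and with no trend (0.0688), and ranged from 1.05 to 2.12 with 1 array left out. With 1 array left out, Tmem87a ranged from -1.56 to -0.98 and Adam23 from -2.99 to -2.20, and Adam23 was -1.81 and -1.67 with the pseudocount and the median floor. For the stem cell arrays minus MEF, leaving out a stem cell array also shifts the weights of AG-haESC and E14 in the stem cell mean. Genes called lower in AG-haESC than in E14 numbered 495, or 871 with array weights and 297 to 664 with 1 array left out, lowest without E14 replicate 2 and highest without E14 replicate 3. Related genes called higher numbered 1 with no trend and 1 to 3 with 1 array left out. Those lower numbered 0 with no trend, 2 with array weights and 0 to 1 with 1 array left out. Neighbours called numbered 4 with array weights, 5 with the mean of probe sets and 1 to 3 with 1 array left out. With the replicate block over E14 and MEF replicates 1 and 2, E14 minus MEF was 0.72 in AA467197, against -0.04, -1.49 in Gpat3, 1.27 in Tmem87a, 2.05 in Kbtbd11 and -0.81 in Adam23. Numbers in the AG-haESC titles name lines, so no paired fit was made for them. Except where shown by fewer arrays or genes tested, the cause was not tested. Signals below the array median limit the size of the Gpat3, Kbtbd11 and Adam23 differences.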
